A study of Homo sapiens with 3 samples.

Results

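The giant genes of the cytoskeleton and its motors, 10 in number, were followed through the editing clusters of an RBFOX2-APOBEC1 STAMP experiment: DYNC1H1, MYH9, MYH10, FLNA, SPTAN1, SPTBN1, PLEC, MACF1, AHNAK and DST. A cluster is a stretch of transcript in which C-to-U editing was called as enriched, and it was taken as belonging to a gene when its annotation label carried that gene's symbol. This gave 47 clusters of 40843 in all, with 18 of 14295 in replicate 1, 17 of 15181 in replicate 2 and 12 of 11367 in replicate 3. None of the 47 labels named a further gene.

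The samples were 3 biological replicates of 1 condition, polyA RNA of HEK293XT cells, a HEK293T line derived from human embryonic kidney, labelled wild type. Each carried a doxycycline-inducible fusion of the splicing regulator RBFOX2 to the cytidine deaminase APOBEC1, expressed for 72 h; the labels give transient transfection as the treatment and also speak of stable lines. Cells without the fusion and cells with APOBEC1 alone were not analysed here, so an edit cannot be assigned to RBFOX2, to APOBEC1 by itself or to a base that differs from the reference. The fusion's own gene was visible in the data, since RBFOX2 held 49 clusters over the 3 replicates.

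In STAMP, the deaminase converts C to U in RNA near places where the attached RNA-binding protein sits, and the conversions are read as C-to-T changes in RNA sequencing. The genes followed here encode very large proteins that carry force or tether filaments. Dynein and nonmuscle myosin II are motors on microtubules and actin, respectively. Spectrins and filamins form the actin-linked mesh beneath the membrane, and plectin and the spectraplakins join different kinds of filament. Their long messages offer many C bases, and a cluster could in principle fall anywhere between the start of the transcript and its 3' end.

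Clusters were present in 8 of the 10 genes and were few, shallow and mostly seen in a single replicate, traits not particular to these genes. Clusters per gene and replicate averaged 1.57, beside 1.39 and 1.78 in the other families of giant genes compared below. The median depth averaged 22.2 reads, against 23.6 for all other clusters. Of the loci, 7.89% lay in all replicates, against 4.77% over the series. MYH10 and DYNC1H1 had the most edited bases, at 18.3 ± 11.0 and 16.3 ± 7.02 per replicate (SD, n = 3). FLNA and PLEC had no cluster in any replicate. The 47 clusters held 228 edited bases over 13343 covered C bases, and 41 of the edited bases, or 18.0%, came from a single 30-base locus in DYNC1H1. As a share of all edited bases of their replicate, the 10 genes made up 0.0849%, 0.0771% and 0.0726% in replicates 1, 2 and 3. Only clusters that passed the calling threshold were available for analysis, so a gene without a cluster may have been poorly covered, unedited or edited below the threshold, and these cannot be told apart.

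**Figure D1:**
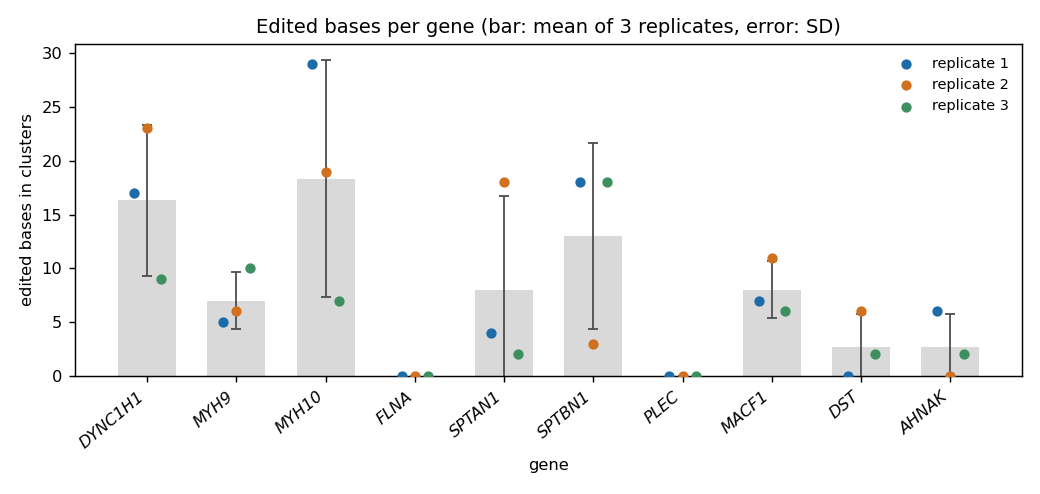
Edited bases in called clusters (y axis, counts) for each of the 10 genes (x axis), with a point per replicate, a bar at the mean of 3 replicates and an error bar of 1 SD, cut off at 0 where it would fall below. MYH10 ranges from 7 to 29 and DYNC1H1 from 9 to 23, while FLNA and PLEC are at 0 in all 3 replicates.

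The 3 motor heavy chains had clusters in all replicates. DYNC1H1, the heavy chain of cytoplasmic dynein that walks toward microtubule minus ends, held 3, 1 and 2 clusters in replicates 1, 2 and 3, with 17, 23 and 9 edited bases. Its pooled edit fraction, the edited bases over all C bases covered by reads in its clusters, was 2.58%, 23.2% and 9.89%. In replicate 2 the only cluster was the locus that recurs in all replicates, described below, while replicates 1 and 3 held further clusters with lower edit fractions. MYH10, the heavy chain of nonmuscle myosin IIB, held 3, 4 and 1 clusters with 29, 19 and 7 edited bases. Its pooled edit fraction of 1.12%, 1.05% and 1.49% varied least among the genes with clusters in all replicates, at 1.22% ± 0.233 (SD, n = 3). MYH9, the heavy chain of nonmuscle myosin IIA, held 2, 1 and 2 clusters with 5, 6 and 10 edited bases, and its pooled edit fraction was 0.780%, 2.50% and 0.900%. No position of MYH9 was called in more than 1 replicate.

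The spectrins, which pair as alpha and beta chains, also had clusters in all replicates. SPTBN1, the beta II chain, had the most clusters of any of the 10 genes, with 5, 1 and 3, and its edited bases numbered 18, 3 and 18. The low count in replicate 2 came from 1 edited read. Pooled edit fractions of SPTBN1 were 1.45%, 8.33% and 1.64%, and the high value of replicate 2 rests on 36 covered C bases (Wilson 95% interval 2.87% to 21.8%). SPTAN1, the alpha II chain, held 1, 3 and 1 clusters with 4, 18 and 2 edited bases. Its pooled edit fraction was 1.14%, 1.87% and 1.49%, so that SPTAN1 and MYH10 did not differ beyond the spread between their replicates.

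Among the linkers and scaffolds, only MACF1 had clusters in all replicates. MACF1, a spectraplakin that connects actin to microtubules, held 2, 4 and 1 clusters with 7, 11 and 6 edited bases, and its pooled edit fraction was 4.24%, 4.0% and 1.3%. DST, the related spectraplakin, had no cluster in replicate 1, 3 in replicate 2 and 1 in replicate 3, each with 2 edited bases. AHNAK, a giant scaffold protein, had 2 clusters in replicate 1, none in replicate 2 and 1 in replicate 3, with 6, 0 and 2 edited bases. FLNA, a filamin that crosslinks actin, and PLEC, which encodes plectin, had 0 clusters in each replicate. Ordered by mean edited bases, MYH10 was followed by DYNC1H1, SPTBN1, MACF1 and SPTAN1 (8.0 each), MYH9 (7.0), and AHNAK and DST (2.67 each). Neighbours in this order differed by less than the larger of their SDs down to MYH9. The step from MYH9 to AHNAK and DST was larger than either SD, but the replicate values of MYH9 (5 to 10) overlapped those of AHNAK and DST (0 to 6). The order depends on counting bases. By edited reads, DYNC1H1 had 17, 23 and 9, more than the 12, 8 and 2 of MYH10 in each replicate. Intervals of edit fractions count each covered C base as independent, although several edited bases can lie on 1 read, so they can be too narrow. Intervals cover counting error at most, because PCR copies of a molecule cannot be recognised in these reads.

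Having a cluster in all 3 replicates held for 6 of the 8 genes with any cluster, against 37.9% of the 9904 gene names that had a cluster in the series. Among the giant genes of other families compared below, it held for 3 of 5 kinase genes and 2 of 6 ubiquitin ligase genes with any cluster. Agreement was much lower at the level of position. When clusters of one strand that shared 1 base or more were merged over replicates, the 47 clusters formed 38 loci, of which 3 lay in all replicates, 3 in a pair of replicates and 32 in a single replicate. Over the whole series 4.77% of loci lay in all replicates, and for the 10 genes it was 7.89%, which is 3 loci. Counted by cluster, 3 of 18, 2 of 17 and 2 of 12 overlapped a cluster of both other replicates, or 16.7%, 11.8% and 16.7%. The corresponding shares over all clusters were 10.6%, 9.86% and 13.1%, and they lie inside the Wilson 95% intervals of the 10 genes (5.84% to 39.2%, 3.29% to 34.3% and 4.70% to 44.8%). Without the DYNC1H1 locus the mean share over replicates was 9.04% in place of 15%. Most genes were called in every replicate, while most positions were called in 1.

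The locus found in each replicate with identical borders was that of DYNC1H1. It lies on the plus strand of chromosome 14 from 102499607 to 102499636 (hg19), in exon part 105 of the gene, where a part number is the label that the clusters carry for a piece of the annotated gene and not the exon number of a transcript. It contains 3 C bases in 30. In replicate 1, 12 of 29 reads were edited, in replicate 2, 23 of 38, and in replicate 3, 6 of 17. These are 41.4%, 60.5% and 35.3% of reads, with Wilson 95% intervals of 25.5% to 59.3%, 44.7% to 74.4% and 17.3% to 58.7% that overlap one another. A large share of reads at the locus carried the called change in every library. An edit and a base that differs from the reference cannot be told apart here.

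The edit fraction of the DYNC1H1 locus was 16.4%, 23.2% and 16.7%, or 18.8% ± 3.86 (SD, n = 3). This placed it at rank 2 by mean edit fraction among the 1586 loci found in all replicates, a rank given as a description. Among all clusters of a replicate, the locus ranked 58 of 14295, 8 of 15181 and 40 of 11367 in replicates 1, 2 and 3. Each edited read there carried exactly 1 edited base in each replicate, and the edit fraction multiplied by the 3 C bases of the locus was 0.493, 0.697 and 0.50. The data give counts per cluster, not per position, so whether the same C base was edited in each read was not tested. Outside this locus, no cluster of the 10 genes had an edit fraction above 9.09% or more than 7 edited reads. The share of edited reads alone did not set the DYNC1H1 locus apart, since the DST cluster of exon part 90 in replicate 3 had 40% from 2 of 5 reads. The product of edit fraction and C bases was also high elsewhere, in clusters with 1 to 3 edited reads. Those named here held 6 to 28 C bases, so their products are not like that of a locus with 3. It was 0.635 and 0.50 at the SPTBN1 locus from 54896374 to 54896478 in replicates 1 and 2. In MYH10, exon part 84 had 0.577 in replicate 1, and the cluster of exon part 0 from 8378709 to 8378813 had 0.484 in replicate 2.

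The locus of SPTAN1 found in all replicates lies on the plus strand of chromosome 9 between 131395714 and 131395758, in exon part 108. It had 4 of 85, 7 of 74 and 2 of 55 edited reads, and edit fractions of 1.14%, 2.30% and 1.49%, or 1.64% ± 0.594 (SD, n = 3). Here, too, edited bases equalled edited reads in every replicate. The locus of MYH10 lies on chromosome 17 (minus strand), positions 8377959 to 8378063, in exon part 0, at depths from 34.8 to 80.6 reads. It had 16 edited bases in 6 edited reads, 3 in 1 and 7 in 2, so that an edited read carried 2.67, 3.00 and 3.50 edited bases, and the edit fraction was 1.18%, 1.86% and 1.49%. The cluster of replicate 1 overlaps those of replicates 2 and 3, which only adjoin each other. SPTAN1 and MYH10 thus had like edit fractions at these loci, at ranks 473 and 532 of 1586, with differently distributed edits.

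**Figure D2:**
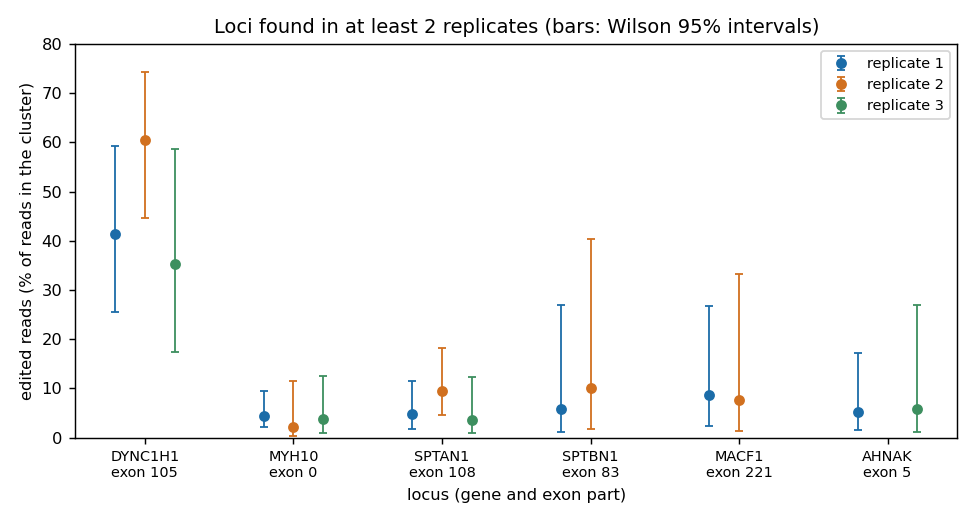
Share of edited reads (y axis, % of the reads in the cluster) at the 6 loci found in at least 2 replicates (x axis, gene and exon part), with a point per replicate and Wilson 95% intervals. The DYNC1H1 locus sits between 35.3% and 60.5%, and the points of the other loci lie at 10.0% or below.

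The remaining repeated loci lay in a pair of replicates and rest on 1 or 2 edited reads each. In MACF1, chromosome 1 from 39952554 to 39952613 had edit fractions of 3.73% and 4.05% in replicates 1 and 2. In SPTBN1, chromosome 2 from 54896374 to 54896478 had 5.77% and 8.33% in the same replicates, with all 6 and all 3 edited bases on a single read. In AHNAK, chromosome 11 from 62283543 to 62283587, on the minus strand, had 0.99% and 2.82% in replicates 1 and 3. The Wilson 95% intervals of each pair overlap. MYH9 and DST had no repeated locus. The MYH9 locus with the most edited bases was chromosome 22 from 36677448 to 36677507, on the minus strand in exon part 0, with 7 in replicate 3. The 4 loci of DST were tied at 2 edited bases each, and the 3'-most lies on chromosome 6 from 56323101 to 56323130.

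Most clusters of MYH10, SPTBN1, MACF1, MYH9 and SPTAN1 lay close together in a single annotated part, as did all clusters of AHNAK. Those of DYNC1H1 and DST were divided over several parts, none of which held most of them. Part numbers rise with the genome coordinate on either strand, in each of 3688 steps between neighbouring clusters on the plus strand and 3632 on the minus strand. Part 0 is therefore the 3'-most annotated part of a minus-strand gene, which need not hold the 3' end of each of its transcripts. For plus-strand genes, the highest part number with a cluster in the series was taken as the 3'-most part, which need not be the last annotated one. Each plus-strand gene with a cluster has at least 1 there by construction, so the count in that part, 29 of the 47 clusters, is no measure of a preference for the 3' end. For minus-strand genes, where the position of part 0 does not depend on the calls, 2 of 7, 6 of 8 and 3 of 5 clusters were in part 0, and the shares over all minus-strand clusters were 62.1%, 57.3% and 59.2%. Pooled over replicates these are 55.0% for MYH9, MYH10, AHNAK and DST, against 59.5%. The share of these giant genes, 11 of 20 clusters, was thus near that of the series.

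The genes differed in how they spread. In MYH10, 7 of 8 clusters fell within 1140 bases of part 0, and the other, in replicate 1, lay in part 84 130081 bases of genome from the next cluster. SPTBN1 had 7 of 9 clusters within 600 bases of part 83 and the remaining clusters in parts 34 and 74, both in replicate 1. MACF1 had 6 of 7 within 1110 bases of part 221. MYH9 was split between part 0, with 3 clusters from replicates 2 and 3, and parts 54 and 59, with 1 cluster each from replicate 1. The clusters of MYH9 in replicate 1 and in the other replicates therefore did not share a part.

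The clusters of DYNC1H1, SPTAN1 and DST lay in 3, 3 and 4 parts. At the repeated locus lay 3 of the 6 clusters of DYNC1H1 and 3 of the 5 of SPTAN1. The clusters of DYNC1H1 were placed in parts 69, 105 and 153, spread over 35525 bases of genome, with the repeated locus in the middle. SPTAN1 had its repeated locus in part 108, its highest, and further clusters in parts 30 and 97 in replicate 2 only. The cluster in part 97 was the sole intronic one, on chromosome 9 from 131391422 to 131391451, with 1 edited base over 19 covered C bases in 29 reads. It makes up 2.13% of the 47 clusters, against 2.15% of all clusters in introns (2.19%, 2.39% and 1.78% in replicates 1, 2 and 3). The 4 clusters of DST fell in 4 different parts (0, 16, 30 and 90) over 94182 bases. Both loci of AHNAK lay in part 5 within 120 bases.

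**Figure D3:**
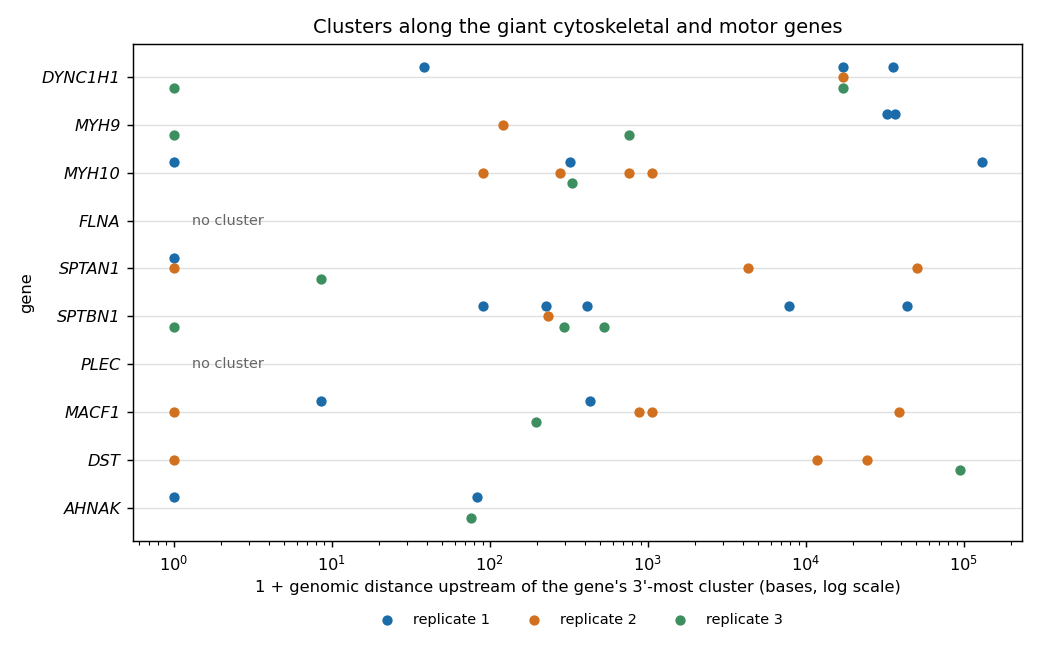
Position of the 47 clusters along the 10 genes (y axis), as 1 plus the genomic distance in bases upstream of the 3'-most cluster of that gene (x axis, log scale), coloured by replicate and offset vertically for clarity. MYH10, SPTBN1 and MACF1 show a group of clusters within 1140 bases and few beyond. Every gene with a cluster except AHNAK has clusters more than 10000 bases apart.

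Within a replicate, the gap between neighbouring clusters of a gene ranged from 45 to 130081 genomic bases, introns included, over 25 gaps. Of these, 13 were under 1000 bases and 9 over 10000, with few between. The median gap was 4017, 2551 and 480 bases in replicates 1, 2 and 3. The score is a cumulative probability that the authors assigned to each cluster. A minimum score of 0.99 raised the mean of these medians from 2349 to 10785 bases, so the spacing depends on that filter.

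Read depth differed between the 3'-most parts so defined and the other parts, but not in the same direction in each replicate. In replicate 1, the median of the mean read depth was 57.8 in the 3'-most parts and 21.7 elsewhere, and in replicate 3 it was 36.6 and 13.3. In replicate 2 the order was the opposite, at 14.4 and 20.4. These medians rest on few clusters, 9, 11 and 9 in the 3'-most parts and 9, 6 and 3 elsewhere in replicates 1, 2 and 3. The DYNC1H1 locus found in all replicates is among those elsewhere. The median edit fraction was lower in the 3'-most parts in each replicate, at 1.14%, 2.50% and 1.49%, than elsewhere, at 3.57%, 3.00% and 4.44%. In replicate 2 this order rests on the DYNC1H1 locus, at 23.2%. The other clusters elsewhere in replicate 2 had 1.42%, 1.56%, 1.65%, 4.35% and 5.26%. Without the locus their median is 1.65%, below that of the 3'-most parts. The part of depth in the differences between parts was not tested. Depth across the 47 clusters ran from 2.74 to 83.8 reads, and 9 clusters reached 50. The share of all clusters that reached 50 was not counted, so this is no trait of these genes.

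Set against all other clusters of the same library, the pooled edit fraction of the 10 genes was higher in each replicate. It was 1.41%, 2.29% and 1.61%, or 1.77% ± 0.463 (SD, n = 3), where the others had 0.956% ± 0.0349. The difference was 0.470, 1.36 and 0.611 percentage points, with a mean of 0.813 ± 0.477. A two-sided exact sign-flip permutation test over the 3 replicates gave p = 0.25 (0.5 after Benjamini-Hochberg adjustment over 4 comparisons), the smallest p that 3 replicates allow, so a threshold of 0.05 could not be reached. Without the DYNC1H1 locus, the mean difference was 0.511 percentage points (exact p = 0.25), and among clusters with a depth of at least 50 it was 0.227, over 3.00 clusters per replicate on average. With medians over clusters it was 0.322, and its sign turned in replicate 3 (-0.119).

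The typical cluster of the 10 genes was close to that of the series in length, C content and depth. The median length was 45 bases in every replicate for the 10 genes and for the others, and 33 of the 47 clusters had 30 or 45 bases. C bases made up 19.2 ± 1.03 per 100 bases of cluster (SD, n = 3), against 19.7 ± 0.385. The median of the mean read depth was 22.2 ± 4.28, against 23.6 ± 2.22. The mean number of reads per cluster was lower, at 40.1 ± 6.99 (SD, n = 3), against 108.7 ± 9.92 for the others. A pooled edit fraction weights clusters by coverage, and the part of this gap in the difference given above was not tested. A single edited read underlay 3 of 18, 7 of 17 and 4 of 12 clusters, where the shares in the series were 28.0%, 31.1% and 33.0%. The score of 0.99 was reached or passed by 12, 11 and 9 clusters, or 66.7%, 64.7% and 75.0%, against 60.8%, 60.1% and 61.2% in the series. The differences in C content and depth were smaller than the spread between replicates of the 10 genes.

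**Figure D4:**
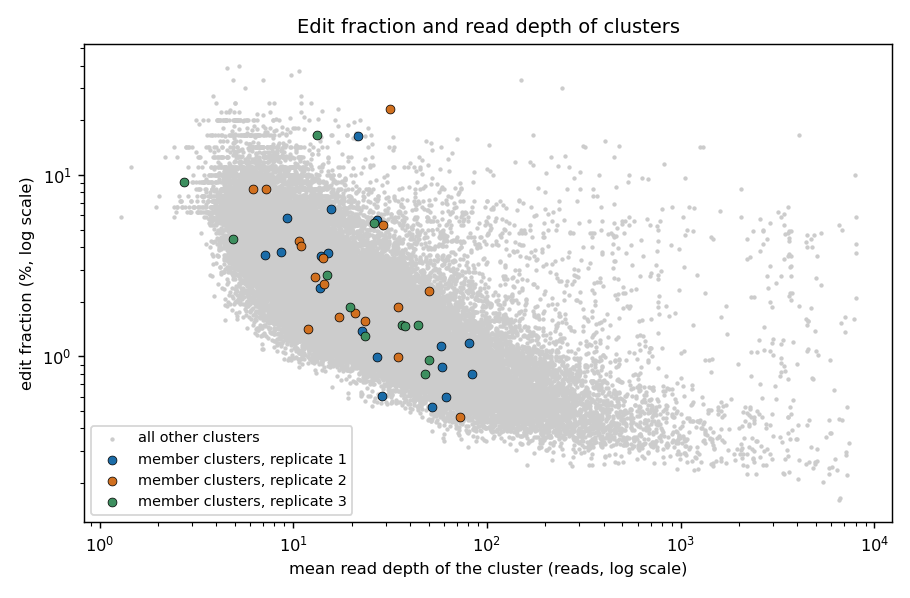
Edit fraction (y axis, %, log scale) against mean read depth (x axis, reads, log scale) for all clusters of 3 replicates (grey) and the 47 clusters of the 10 genes (coloured by replicate). The coloured points lie within the grey cloud between depths of 2.74 and 83.8, except for the 3 points of the DYNC1H1 locus at 16.4% to 23.2%, near its upper edge.

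Long genes of other families gave similar numbers. Clusters per gene and replicate averaged 1.57 ± 0.321 (SD, n = 3) for the 10 cytoskeletal and motor genes, 1.39 ± 0.509 for 6 giant ubiquitin ligases (HUWE1, UBR4, HERC1, HERC2, MYCBP2 and BIRC6) and 1.78 ± 0.536 for 6 kinases of the PI3K-like family (PRKDC, ATM, ATR, MTOR, SMG1 and TRRAP). The pooled edit fraction of the cytoskeletal and motor genes differed from that of the ligases by -0.207 ± 0.547 percentage points (exact sign-flip p = 0.75, adjusted p = 0.75, n = 3) and from that of the kinases by 0.0964 ± 0.697 (exact p = 0.75, adjusted p = 0.75, n = 3). Neither difference exceeds its spread between replicates, and the direction changed between replicates in each case.

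Relatives and binding partners of the 10 genes were counted from a list of 33 genes. Of these, 24 had a cluster in at least 1 replicate and 12 in all 3, beside the 37.9% of gene names with any cluster that had them in all 3 over the series. Among 11 motor partners, 6 had clusters in all replicates, including the dynein light intermediate chains DYNC1LI1 and DYNC1LI2 and the myosin light chains MYL6, MYL12A and MYL12B. DYNC1LI2 held 8, 6 and 3 clusters, more than DYNC1H1 in each replicate. MYL12B, a regulatory light chain of nonmuscle myosin, had 328 edited bases over the 3 replicates, compared with 21 and 55 for the heavy chains MYH9 and MYH10, at pooled edit fractions of 1.23%, 1.02% and 0.946%. MYL6 and MYL12A, with 105 and 137, also had more edited bases than either heavy chain, and MYL9 had no cluster. These are sums not scaled to length or to RNA level, which was not analysed here.

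Of 13 cross-linkers and spectrin partners, 11 had a cluster and 4 of these had clusters in all replicates, a share near the 37.9% of the series. The latter were the adducins ADD1 and ADD3, which cap actin and recruit spectrin, and the protein 4.1 family members EPB41 and EPB41L2. FLNC, a paralogue of FLNA, had 1, 0 and 0 clusters. MYH14, the remaining nonmuscle myosin II heavy chain, had none. Of 9 plakins and relatives, 5 had a cluster, and DSP (desmoplakin, 3, 2 and 3 clusters) and MAP4 (a microtubule-associated protein, 3, 4 and 5 clusters) had them in all replicates. The epithelial plakins EVPL and PPL and the AHNAK relative AHNAK2 had no cluster.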

How the data were processed

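RNA editing was measured in 3 replicates of HEK293XT cells expressing RBFOX2-APOBEC1. The submitters' processing notes name STAR and hg19 (the STAR version is not given in the sources used here). The authors called edited positions with SAILOR and removed common SNPs, tested windows of 30 bases with FLARE at an adjusted p-value threshold of 0.1, merged passing windows within 15 bases and scored clusters, each replicate separately. The deposited counts of edited and covered C bases and of edited and total reads are whole numbers without scaling. The deposited fractions, edited bases over covered C bases and edited reads over reads, were recomputed from the counts in all 40843 clusters (tolerance 1e-09). The deposited mean depth is coverage without scaling to library size. The authors' score runs from 0 to 1.

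Clusters were assigned to genes by label. The reads in clusters of the 10 genes numbered 861, 582 and 459, which are not library depths and which limit each value to few reads. Coordinates were written with the deposited start plus 1, taking starts as counted from 0. Scripts ran in Python 3.11.15 with SciPy 1.17.1, pandas 2.3.3 and NumPy 2.4.6, and figures were drawn with matplotlib 3.10.9. Values are means and SD over replicates. Shares have Wilson 95% intervals, and differences between groups of clusters in the same libraries were tested with two-sided exact sign-flip permutation tests. Adjusted p-values are Benjamini-Hochberg over 4 comparisons. Code for overlaps and the permutation test was tested on simulated data. All 10 genes were named, with, per gene, the locus with the most edited bases among loci in all replicates or else in most replicates, and the intronic cluster. Other clusters mentioned, the lists of giant ligases and kinases and the measure of the 3'-most part were chosen after values were seen. The genes and lists were chosen with earlier results of these data known. Alternatives were a score of 0.95 or 0.99 and more, depths from 50, at least 2 edited reads, an overlap of 50%, medians, other totals and leaving out replicates. The sequences of the clusters were not analysed here, and some genes of the comparison and partner lists are not reported here and were left out of their counts.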

Additional observations from a re-analysis of the deposited data

How the results depend on the processing

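Only the difference from other clusters could change direction, and its mean over replicates did not. Of 26 alternatives that kept all replicates, 16 gave a stable value. Stable meant within 1.5 times for counts, within 1 SD for other values, and of the same sign for the difference from other clusters. That difference, 0.813 percentage points, kept its sign but was 0.227 at a minimum depth of 50 and 0.322 with medians, where replicate 3 had -0.119. A minimum mean read depth of 50 moved most results: clusters per replicate went from 15.7 to 3.00, the share of all edited bases from 0.0782% to 0.0317%, the pooled edit fraction from 1.77% to 0.930%, the parts with a cluster from 11.3 to 2.33, the share found in all replicates from 15% to 0%, and the median gap from 2349 to 270 bases, in replicate 1 only. By construction fewer clusters remain there. A minimum of 2 edited reads moved the share found in all replicates to 19.4%, and a minimum score of 0.99 the median gap to 10785 bases. Without the DYNC1H1 locus, an alternative chosen after seeing the data, the share of edited bases was 0.0648% and the share found in all replicates 9.04%.

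Leaving out each replicate in turn gave 14.5 to 17.5 clusters per replicate, 0.0748% to 0.0810% of edited bases, a pooled edit fraction of 1.51% to 1.95%, a difference from other clusters of 0.541 to 0.984 percentage points, 10.5 to 12.5 parts and median gaps of 1516 to 3284 bases. The share found in every remaining replicate was 14.2% to 28.6%, highest without replicate 3 (28.6%) and without replicate 2 (27.8%), and lowest without replicate 1. With 1 replicate left out, a cluster needs to overlap only 1 other replicate, so the share of a given replicate cannot fall and is not like the main value. The loci found in a pair of replicates, in MACF1, SPTBN1 and AHNAK, all included replicate 1. Why they did was not tested. No paired analysis was possible because all samples form 1 group, so that no groups of samples share replicate numbers. Clusters were compared within libraries. Few reads limit each value: 14 of the 47 clusters rest on 1 edited read.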
